A study of Mus musculus with 8 samples.

Results

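LY-364947, an inhibitor of the kinase of the TGF-beta type I receptor, was added to mouse embryonic fibroblasts (MEFs), and RNA-seq of these cells was compared with that of untreated MEFs. The comparison rests on 4 of the 8 libraries of the series, namely the 2 libraries labelled with the compound and the 2 libraries labelled MEF with the treatment given as Control, and it covers all 15154 genes with enough reads for a test. The other 4 libraries, from MEFs treated with carbidopa, which inhibits aromatic-L-amino-acid decarboxylase, or with CHIR-99021, which inhibits the kinase GSK3, share the fit and are drawn on only where LY-364947 was set against another treatment. All cells were primary wild-type MEFs at passages 3 to 5, grown in DMEM with 10% serum. These are cultured connective tissue cells grown from embryos without head, tail, limbs and internal organs, so a culture is a mixture of fibroblasts of many body sites and can hold other cell types as well. The compound was given at 10 µM, starting 2 hours after plating, and the medium was changed every 3 days. The labels spell the compound LY-364747. The length of the treatment before RNA was taken and a vehicle for the controls are not given in the sources used here, nor whether the replicates were separate cultures, so that p-values measure the spread between libraries, which may be technical.

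TGF-beta is secreted in a latent form bound to matrix. Once released, it binds the type II receptor, which recruits and activates the type I receptor, and this kinase phosphorylates SMAD2 and SMAD3, which enter the nucleus with SMAD4. In fibroblasts the pathway is known for raising extracellular matrix and contractile genes, the programme of the myofibroblast, and for switching on its own inhibitors such as SMAD7 and SKIL.

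The labels give the cell type of the treated libraries as hepatic-like, and markers of mature hepatocytes were at or near 0. Of 7 such markers, Fgb, Ttr and Serpina1a had 0 reads in all 4 libraries. Reads of Alb, which encodes serum albumin, numbered 2 and 0 for MEFs and 8 and 10 after treatment, and those of Hnf4a, the hepatocyte transcription factor, 1 and 2 against 10 and 9. The 7 markers together reached a summed CPM (reads scaled by the total count of each library) of 1.21 and 1.06 with the compound and 0.199 and 0.17 without it. Cyp1a1, a detoxifying enzyme gene of liver and other tissues, had 10 and 9 reads against 4 and 0 and was not called. Of 24 genes of hepatic progenitors and simple epithelia, 8 were tested, of which 2 were higher, Dlk1 and Krt19, and 3 were lower, Krt7, Prom1 and Sox9. Their summed CPM was 430.4 and 438 with LY-364947 against 269.6 and 261. For this and later lists, CPM was scaled by the library size after TMM normalisation. Most of the sum came from Dlk1 (7189 and 7708 reads against 3150 and 3581), which other embryonic tissues express too. The fibroblast markers Col1a1, Col3a1, Thy1, Pdgfra and Prrx1 each had at least 3198 reads in each of the 4 libraries, so the cells are described here as LY-364947-treated MEFs.

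The 4 libraries held 15039566 to 17960556 counts. The share of reads in the 10 genes with the most reads was 10.1% and 10.5% for MEFs and 8.55% and 7.35% after treatment. Values below are normalised read counts, that is counts scaled to a common library size after TMM normalisation, and the error of a log2 fold change is its standard error (SE) from the fit. A gene is called higher or lower where the Benjamini-Hochberg adjusted p of the quasi-likelihood test in edgeR was under 0.05.

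After LY-364947 treatment, 2081 of the 15154 genes tested were higher than in MEFs (13.7%) and 2613 were lower (17.2%). The median log2 fold change over all tested genes was 0.028, so the centre of the distribution lay close to no change. Among the called genes the median rise was 0.92 and the median fall was -0.94 on the log2 scale. A change of at least 4-fold was found for 420 genes that rose and 573 that fell, and one of at least 16-fold for 108 and 107. Leaving out any of the 4 libraries left 1176 to 1326 genes called higher and 1709 to 1808 called lower, and in each such fit all of the genes still shared with the full fit kept their direction.

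**Figure D1:**
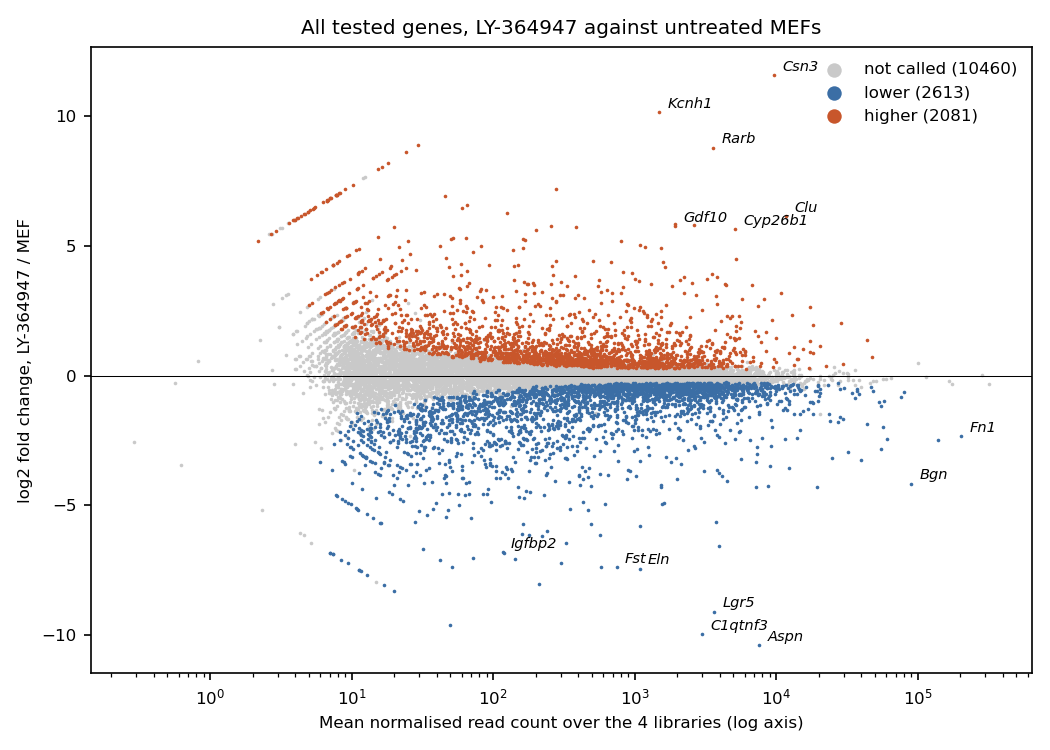
log2 fold change of LY-364947 over MEF (vertical) against the mean normalised read count of the 4 libraries (horizontal, log axis) for the 15154 tested genes. Orange points are the 2081 genes called higher, blue points the 2613 called lower and grey points the 10460 not called, and the named genes at the top and bottom, from Csn3 at 11.58 to Aspn at -10.39, stand away from the bulk.

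Among protein-coding genes with a mean of at least 100 normalised counts in the higher group, the largest rise was that of Csn3, which encodes the milk protein kappa casein (ENSMUSG00000001622, GRCm38 chr5:87925579-87932665). It had 7.97 and 4.61 normalised counts in the MEF libraries and 20426 and 18023 with LY-364947, from 6 and 4 reads to 20384 and 18958 (log2 fold change 11.58, SE 0.24, edgeR adjusted p = 1.01e-09). Kcnh1, a voltage-gated potassium channel gene, had 2 reads in each MEF library and rose to 2937 and 3026 normalised counts. Both genes were thus close to undetected in MEFs and abundant in both treated libraries. Clu, which encodes the secreted chaperone clusterin, went from 319 and 339.8 to 22249 and 24192, a 70.5-fold rise. Gdf10, a BMP-related ligand, went from 66.4 and 72.6 to 3912 and 3655, and Igfbp6, which encodes a binding protein for insulin-like growth factors, from 427 and 456 to 9457 and 10632. Irf4, a transcription factor of lymphoid cells, and the neural adhesion gene Cntn6 were among the 15 largest rises at much lower levels, with 124 and 115 normalised counts of Irf4 and 134 and 125 of Cntn6 after treatment. The other members of these 15 rises were Rarb, Cyp26b1, Cdhr1, Cmah, Upp1, Shisa3, Tmem255a, 2610528A11Rik and Gm16485. For none of the 15 did the groups overlap, which the rule for naming them required.

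The rise of Rarb and Cyp26b1 placed genes of retinoic acid signalling among the largest changes. Retinoic acid binds nuclear receptors that sit on direct repeats in DNA, and the receptor gene Rarb and the degrading enzymes Cyp26a1 and Cyp26b1 are well-known targets of the hormone. Rarb (GRCm38 chr14:16430839-16819156) had 15.9 and 16.1 normalised counts in MEFs and 7241 and 7076 with LY-364947, a 443-fold rise (log2 SE 0.16, edgeR adjusted p = 8.87e-10). Cyp26b1 rose from 208 and 196 to 10687 and 9566, and Dhrs3, which reduces retinaldehyde to retinol, from 522 and 515 to 7413 and 6953. In all 3 genes both treated libraries lay far above both MEF libraries. Cyp26a1 had 0 reads in both MEF libraries and 11.02 and 14.3 normalised counts with the compound, which is at least 3.17-fold higher when 3 reads per MEF library are taken as the limit. Aldh1a1, a retinaldehyde dehydrogenase gene, also rose, 2.48-fold. Other members moved the other way: the retinoic acid synthesising enzymes Aldh1a2 (29.2 and 16.1 to 3.01 and 1.90) and Aldh1a3 (47.8 and 46.1 to 5.01 and 5.70) fell, as did Rdh10, Aldh1a7, Rara and the binding protein gene Crabp1 (2.95-fold). The call of Rara was lost when any of the 4 libraries was left out, and that of Aldh1a7 without MEF replicate 1 or LY-364947 replicate 2. In all, 6 of 14 tested retinoid genes were higher and 6 lower, beside 13.7% and 17.2% of all genes, and the median log2 fold change was -0.12. The summed CPM of the list was 409.4 and 387.8 in MEFs and 1671 and 1542 with LY-364947. It was 1750 and 1615 with carbidopa and 1211 and 1217 with CHIR-99021, so the sum was not raised by LY-364947 alone.

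The promoters of the 12 retinoid genes found in RefSeq (GRCm38.p6, 250 bases before to 50 after the start site) were searched on both strands for the retinoic acid response element of the DR5 type, a pair of hexamer half-sites 5 bases apart, which was chosen after the values of Rarb had been seen. It was found in 2 of the 12, Rarb and Cyp26a1, and in 32 of 32851 promoters in all (0.0974%). The 200 bases before each start site are shown 5′ to 3′ because both genes rose from few reads (12 and 14 in MEFs for Rarb), and capitals mark the element. That of Rarb lies at chr14:16575477-16575676 on the minus strand and that of Cyp26a1 at chr19:37697608-37697807 on the plus strand, where the element reads on the opposite strand. It starts 53 bases before the start site in Rarb and 32 bases before it in Cyp26a1.
Rarb: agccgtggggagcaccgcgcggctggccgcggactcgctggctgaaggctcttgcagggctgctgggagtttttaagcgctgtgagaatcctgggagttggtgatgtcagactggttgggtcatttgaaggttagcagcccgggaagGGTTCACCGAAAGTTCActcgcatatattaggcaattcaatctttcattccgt
Cyp26a1: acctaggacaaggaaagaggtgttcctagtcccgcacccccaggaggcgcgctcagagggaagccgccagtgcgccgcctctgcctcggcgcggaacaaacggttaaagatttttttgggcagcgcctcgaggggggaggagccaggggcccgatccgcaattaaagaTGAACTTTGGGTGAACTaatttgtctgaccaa
The promoters of Cyp26b1 and Dhrs3 did not hold these letters in this window. A match is a description of the sequence, and no binding was measured.

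By the same rule, the largest fall was that of Aspn, which encodes asporin, a small leucine-rich proteoglycan that binds TGF-beta (GRCm38 chr13:49544443-49567565). It had 13362 and 17164 normalised counts in MEFs and 11.02 and 11.4 with LY-364947 (1346-fold lower, log2 SE 0.28, edgeR adjusted p = 3.34e-09). C1qtnf3, a secreted C1q/TNF-related protein gene, fell from 5687 and 6306 to 5.01 and 6.65, and Lgr5, the R-spondin receptor known from stem cells, from 7098 and 7545 to 9.02 and 17.1. These 3 genes were well expressed in both MEF libraries and had at most 17.1 normalised counts in a treated library. Eln, which encodes elastin, fell from 2029.8 and 2284 to 15.03 and 9.51, and Fst, which encodes the activin antagonist follistatin, from 1347 and 1629 to 7.01 and 10.5. Reg1 had 110.2 and 89.8 normalised counts in MEFs and 0 reads with LY-364947, at least 25.1-fold lower. The other large falls were those of Mfap4, Slc5a7, Chl1, Igfbp2, the cardiac troponin gene Tnnt2, the chemokines Ccl8 and Ccl11, and Fcrls and Cx3cr1, which are genes of the macrophage lineage.

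For the ligands and latency proteins of TGF-beta, 4 of 11 tested genes were higher and 5 lower, beside 13.7% and 17.2% of all genes. Tgfb1 had 1772 and 1457 normalised counts in MEFs and 816 and 824 with the compound (1.97-fold lower), and Tgfb3 fell from 2256 and 2102 to 506 and 544 (4.15-fold). Tgfb2 moved the opposite way, from 354 and 346 to 2036 and 1850.1 (5.55-fold higher, log2 SE 0.12, edgeR adjusted p = 1.74e-07). The groups were apart for these 3 ligands, as they were for 72.7% of all tested genes. Among the latent TGF-beta binding proteins, which anchor the latent ligand in the matrix, Ltbp2 (6.87-fold) and Ltbp4 (3.44-fold) fell, and Ltbp1 (1.51-fold) and Ltbp3 (1.497-fold) rose. Lrrc32, which encodes the cell surface anchor GARP, rose 1.83-fold. Inhba, the activin A subunit, fell from 1665 and 1485 to 417 and 557, while Inhbb (log2 fold change -0.23) and Gdf11 (0.11) did not pass the test.

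Of the receptors and Smads, 8 of 12 tested were lower and 2 higher, beside 17.2% lower and 13.7% higher of all genes. The median log2 fold change was -0.47. Tgfbr1, which encodes the kinase that the compound inhibits (GRCm38 chr4:47353222-47414931), fell from 1993 and 2379 to 1042 and 907 (2.24-fold, log2 SE 0.15, edgeR adjusted p = 0.000176). Tgfbr2 fell 1.63-fold, and the activin type II receptor gene Acvr2a 2.95-fold. Smad4, the common partner, fell from 2971 and 2937 to 1052 and 1084, whereas Smad3 rose from 1783 and 1777 to 2893 and 2974. Eng, which encodes endoglin, and Acvrl1 were also lower, 1.41-fold and 1.57-fold. Smad2 (-0.36) and Tgfbr3 (-0.43) passed with small log2 fold changes but lost their calls when any of the 4 libraries was left out, and so did the rise of Acvr2b, which had 6.64 and 4.61 normalised counts in MEFs and 23.0 and 21.9 with LY-364947. Zfyve9 and Acvr1b were not called.

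The genes that TGF-beta signalling is known to induce directly, among them its feedback inhibitors, were lower in 16 of 22 and higher in 2. Of all tested genes 17.2% were lower and 13.7% higher. The median log2 fold change of the 22 was -1.12. Leaving out any of the 4 libraries left 13 to 15 lower. Smad7, the inhibitory Smad, had 1667 and 1538 normalised counts in MEFs and 357 and 397 with LY-364947 (4.25-fold lower, log2 SE 0.11, edgeR adjusted p = 2.48e-07). Skil, whose product SnoN represses SMAD complexes, fell from 1937 and 2068 to 498 and 462. In both genes both treated libraries held less than both MEF libraries by a wide margin. Ctgf, a matricellular protein gene, fell 12.4-fold, and Ldlrad4, which keeps Smads from the receptor, 7.57-fold. Lmcd1 (11.2-fold), Spsb1 (3.21-fold), Nox4 (2.98-fold), Tgfbi (2.87-fold), Bhlhe40 (2.16-fold) and Tgif1 (2.03-fold) were lower too. The log2 fold changes of Ski (-0.73), Nedd9 (-0.65), Smurf1 (-0.52), Junb (-1.13) and Il11 (-1.55) passed the test, and Il11, at 19.9 and 14.97 normalised counts in MEFs, lost its call when any of the 4 libraries was left out, as Smurf1 did without MEF replicate 1 or 2 or LY-364947 replicate 1 and Junb without MEF replicate 1 or LY-364947 replicate 1. The exceptions were Bambi, a pseudoreceptor that blocks the pathway, which rose from 57.1 and 49.5 to 378 and 352, and Pmepa1, which rose 1.41-fold and lost its call without MEF replicate 1. Smurf2, Klf10, Cdkn2b and Snai1 were not called.

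Set directly against CHIR-99021, an inhibitor of another kinase, 16 of the same 22 genes were lower with LY-364947 and 1 was higher, where 6.45% of all tested genes were lower and 7.69% higher. The count of lower genes went to 9 or 10 when a library of either treatment was left out. Skil had 2220.2 and 2518 normalised counts with CHIR-99021 (LY-364947 against CHIR-99021 log2 fold change -2.30, SE 0.11, edgeR adjusted p = 2.91e-06). For this gene the CHIR-99021 libraries lay above the MEF libraries and the LY-364947 libraries far below them. For Smad7 the CHIR-99021 libraries (851 and 846) lay between MEF and LY-364947, and for Ctgf (3250.2 and 3088) likewise. Tgfbi was the exception, with 94.6 and 68.4 normalised counts under CHIR-99021 and more under LY-364947. The carbidopa libraries held 374 and 386 normalised counts of Smad7 and 445 and 464 of Skil, and 0 of the 22 genes differed between LY-364947 and carbidopa, where 0.0132% of all genes did. That comparison is limited by the carbidopa replicates, which differed most from each other, and without carbidopa replicate 2 it called 3832 genes in all in place of 2.

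**Figure D2:**
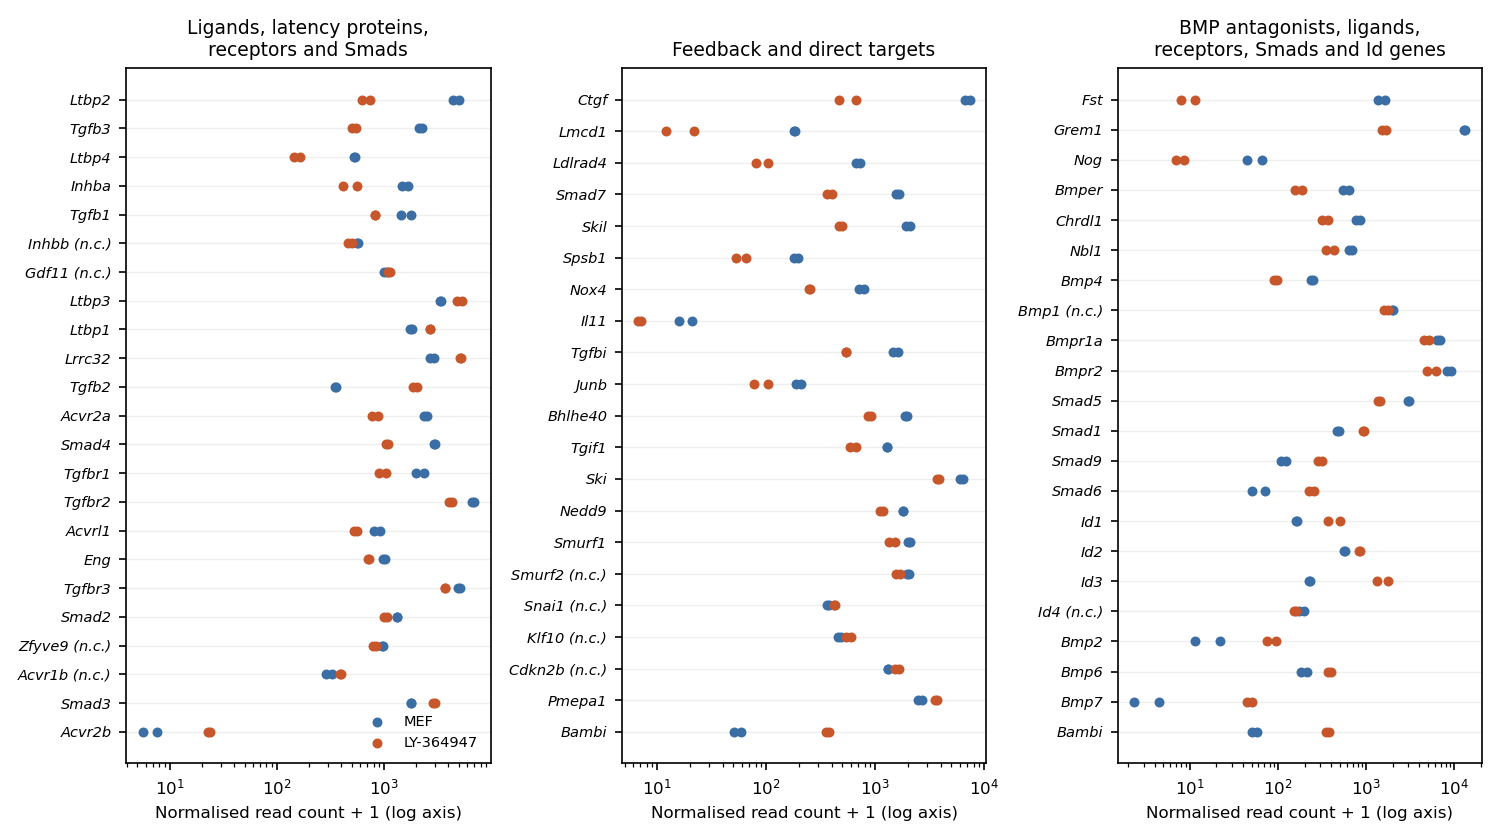
Normalised read count plus 1 (log axis) of tested genes of the TGF-beta ligands, latency proteins, receptors and Smads (left), of TGF-beta feedback and direct targets (middle) and of the main BMP pathway genes (right) in the 2 MEF libraries (blue) and the 2 LY-364947 libraries (orange), with genes not called marked n.c. Feedback genes such as Smad7 and Skil lie to the left of MEF after treatment, Tgfb2 and Bambi to the right, and among BMP genes the antagonists Fst, Grem1 and Nog lie left while Id1, Id3 and Smad6 lie right.

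The BMP branch uses other type I receptors and SMAD1, SMAD5 and SMAD9, and switches on the Id genes. Several of its antagonists fell with LY-364947: Grem1 from 13346 and 12776 to 1671 and 1494, and Nog from 43.8 and 64.5 to 6.01 and 7.61, beside Fst above. Crim1 rose instead, with log2 fold changes of 1.681 to 1.734 over the fits. Bmper (3.41-fold), Chrdl1 (2.35-fold), Chrd (2.13-fold), Nbl1 (1.69-fold) and Fstl3 (1.54-fold) were lower as well. Several target genes rose. Id3 went from 231 and 223 to 1332 and 1771 (6.83-fold higher, log2 SE 0.29, edgeR adjusted p = 4.65e-05), Id1 from 159 and 164 to 369.8 and 507, and Smad6, the inhibitory Smad of this branch, from 49.1 and 70.3 to 221 and 253, with no overlap between groups. Id2 rose 1.497-fold, and Id4 was not called (log2 fold change -0.26). Smad1 and Smad9 rose 1.94-fold and 2.60-fold while Smad5 fell 2.16-fold. Chrd lost its call when any of the 4 libraries was left out, Id2 without either MEF library or LY-364947 replicate 1, Nbl1 without MEF replicate 1 or LY-364947 replicate 1, Fstl3 without MEF replicate 1 or LY-364947 replicate 2, and Bmp6 without MEF replicate 2. The ligand genes Bmp2, Bmp6 and Bmp7 rose, Bmp7 from 1.33 and 3.46 to 43.1 and 49.4, and Bmp4 fell from 235 and 248 to 96.2 and 88.4. Bmp3 rose too, with log2 fold changes of 0.608 to 0.745 over the fits, and some fits lost its call. Over the 26 tested genes, 10 were higher and 15 lower, beside 13.7% and 17.2% of all genes. When any of the 4 libraries was left out, 7 to 9 were higher and 9 to 11 lower, the fewest lower without MEF replicate 1 or LY-364947 replicate 2.

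Smooth muscle contractile genes, some of which mark myofibroblasts, were lower in 13 of 17 and higher in 2. Of all tested genes 17.2% were lower and 13.7% higher. The median log2 fold change of the 17 was -1.43. Actg2, enteric smooth muscle actin, had 798 and 722 normalised counts in MEFs and 46.1 and 57.0 with LY-364947 (14.7-fold lower, log2 SE 0.17, edgeR adjusted p = 7.64e-08). Cnn1, which encodes calponin, fell from 346 and 354 to 39.1 and 39.0, Tagln, which encodes transgelin, from 15491 and 14265 to 3329.8 and 4158, and the smooth muscle myosin gene Myh11 from 372 and 386 to 45.1 and 54.2. Mylk, Smtn, Des and Myl9 fell 3.71-fold, 2.95-fold, 4.34-fold and 2.70-fold. Tpm1, a tropomyosin gene expressed in most cells, rose instead from 12953 and 12407 to 27243 and 29309, and Pln, which encodes the calcium pump regulator phospholamban, went from 0 and 1 reads to 35.1 and 25.7 normalised counts. Tpm2 (log2 fold change -0.71), Lmod1 (-0.63) and Cnn2 (-0.43) were lower by less, and lost their calls without either MEF library or LY-364947 replicate 1, Tpm2 and Cnn2 also without LY-364947 replicate 2. Synpo2 and Ldb3 were not called. Over all tested genes 6.45% were lower with LY-364947 than with CHIR-99021 and 7.69% higher. Against CHIR-99021, 11 of the 17 were lower with LY-364947 and 0 higher, and 5 to 9 when a library was left out. The CHIR-99021 libraries held 10419.6 and 9291 normalised counts of Tagln, between MEF and LY-364947, and 2400.1 and 1927 of Myl9, no lower than MEF (1912 and 1903). Acta2, smooth muscle actin, was low under both compounds, with 2033 and 1667 for LY-364947, 2396 and 1689.7 for CHIR-99021 and 38576 and 35161 in MEFs. The summed CPM of the list was 4346 and 4529 with LY-364947 and 4808 and 4343 with carbidopa. It was 7233 and 6664 with CHIR-99021 and 7635 and 7527 in MEFs. Between LY-364947 and carbidopa 0 of the 17 were called, a comparison limited by the carbidopa replicates.

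Serum response factor acts on such genes through the CArG box, an A/T-rich core between CC and GG. The box was found in the promoters of 3 of the 14 contractile genes matched in RefSeq, Myl9, Cnn2 and Ldb3, and in 535 of 32851 promoters (1.63%). Of the 13 matched TGF-beta feedback genes 1 held it, Lmcd1, and of the 8 fibrillar collagen genes 0. The promoter of Myl9, which encodes a myosin light chain, is shown because the box is in this window and the gene fell. The 200 bases before its start site lie at chr2:156775264-156775463 on the plus strand, and the box, in capitals, starts 161 bases before it.
Myl9: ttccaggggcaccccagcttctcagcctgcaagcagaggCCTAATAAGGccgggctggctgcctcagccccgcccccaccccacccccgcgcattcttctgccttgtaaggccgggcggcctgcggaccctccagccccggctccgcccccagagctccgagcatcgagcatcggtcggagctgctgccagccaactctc
The full SMAD element GTCTAGAC was found in 0 promoters of the 3 lists and in 70 of all promoters (0.213%). The shorter CAGACA, which shares the letters AGAC with it, was found in 4 of 14 contractile, 4 of 13 feedback and 3 of 8 collagen genes, beside 21% of all promoters. The AP-1 element TGANTCA was found in 3, 1 and 0 of them, beside 7.81%, and the TATA box, TATAAA, in 3, 2 and 2, beside 13.6%.

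Of 23 genes of the actin cytoskeleton and its serum response factor targets, 11 were lower and 2 higher (median -0.38). Of all tested genes 17.2% were lower and 13.7% higher. Fhl2, a LIM-domain cofactor, fell from 2036 and 1948 to 178 and 222, zyxin (Zyx) 2.31-fold, Actn1 2.15-fold and Actb 1.43-fold. Here 12 of the 23 were lower than with CHIR-99021, and 6 to 9 when a library was left out. Of all tested genes 6.45% were lower than with CHIR-99021 and 7.69% higher. The summed CPM of the 23 was 9593 and 10370 with LY-364947 and 9597 and 9960 with carbidopa. It was 15650 and 14620 with CHIR-99021 and 13870 and 13290 in MEFs. In the cardiac and skeletal muscle list only 6 of 16 genes were tested. Acta1, skeletal muscle actin, fell from 333 and 294 to 5.01 and 3.80, and the CHIR-99021 libraries held 106 and 85.0. The muscle regulators Myod1 and Myog had at most 1 read in any of the 4 libraries.

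Collagens of the fibril-forming group carry the tensile strength of connective tissue. Of 10 tested fibrillar collagen genes, 8 were lower and 1 higher, beside 17.2% lower and 13.7% higher of all genes. The median log2 fold change was -1.40. Against CHIR-99021, 3 of the 10 were higher with LY-364947 and 2 lower, with a median of -0.04. Of all tested genes 7.69% were higher and 6.45% lower in that comparison. Col1a2 had 68648 and 68977 normalised counts in MEFs and 19146 and 18095 with LY-364947 (3.70-fold lower, log2 SE 0.10, edgeR adjusted p = 2.18e-07). Its partner in type I collagen, Col1a1, fell from 72768 and 70704 to 39844 and 30292 (2.05-fold), and Col3a1 from 25082 and 27661 to 13439.5 and 13306 (1.97-fold). Col11a1, a nucleator of fibrils, fell most, from 3568 and 3925 to 223 and 247, and Col5a1 and Col5a2 fell 3.36-fold and 2.45-fold. Col11a2 rose from 5.31 and 9.22 to 23.0 and 24.7, and lost its call when any of the 4 libraries was left out. Of 25 tested non-fibrillar collagens 16 were lower and 0 higher, among them Col8a1 (11.2-fold), Col6a3 (10.2-fold), Col4a1 (4.33-fold) and Col4a2 (2.84-fold) of the basement membrane. Of these 25, 4 were higher than with CHIR-99021 and 3 lower.

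The small leucine-rich proteoglycans, which bind collagen fibrils, were lower in 8 of 12 and higher in 1. Of all tested genes 17.2% were lower and 13.7% higher. Bgn, which encodes biglycan (GRCm38 chrX:73483602-73495933), fell from 164268 and 178059 to 9758 and 9287 (18.0-fold, log2 SE 0.13, edgeR adjusted p = 9.84e-09), fibromodulin (Fmod) from 1172 and 1218 to 45.1 and 32.3, and lumican (Lum) from 4794 and 5778 to 1007 and 795. Decorin (Dcn), the relative of biglycan, had 28487 and 32676 in MEFs and 34971 and 31071 with LY-364947, overlapping and not called (log2 fold change 0.11, SE 0.13). Osteoglycin (Ogn) went up from 4390.2 and 5109.8 to 32601 and 27542. The list thus spanned from Aspn at -10.39 to Ogn at 2.66 on the log2 scale. Against CHIR-99021, 5 of the 12 were higher with LY-364947 and 3 lower, beside 7.69% and 6.45% of all genes.

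Elastic fibre genes were lower in 9 of 12 and higher in 1, beside 17.2% lower and 13.7% higher of all genes. Against CHIR-99021, 3 of the 12 were higher with LY-364947 and 3 lower, beside 7.69% and 6.45% of all genes. Beside Eln, the microfibril gene Mfap4 fell from 7429 and 8319 to 88.2 and 77.0 and Mfap2 from 611 and 687 to 31.1 and 42.8. The fibulins Fbln2 and Fbln5 fell 8.96-fold and 5.68-fold and fibrillin-1 (Fbn1) 2.01-fold, whereas Efemp1, also called fibulin-3, rose from 9704 and 10107 to 25381 and 24299. Mfap4 was still at 734 and 868 with CHIR-99021, the largest shortfall of LY-364947 against that compound among genes with a mean of at least 100 normalised counts in the higher group (log2 fold change -3.28, SE 0.14, edgeR adjusted p = 2.24e-06), while Eln had 14.4 and 12.4 normalised counts with CHIR-99021.

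**Figure D3:**
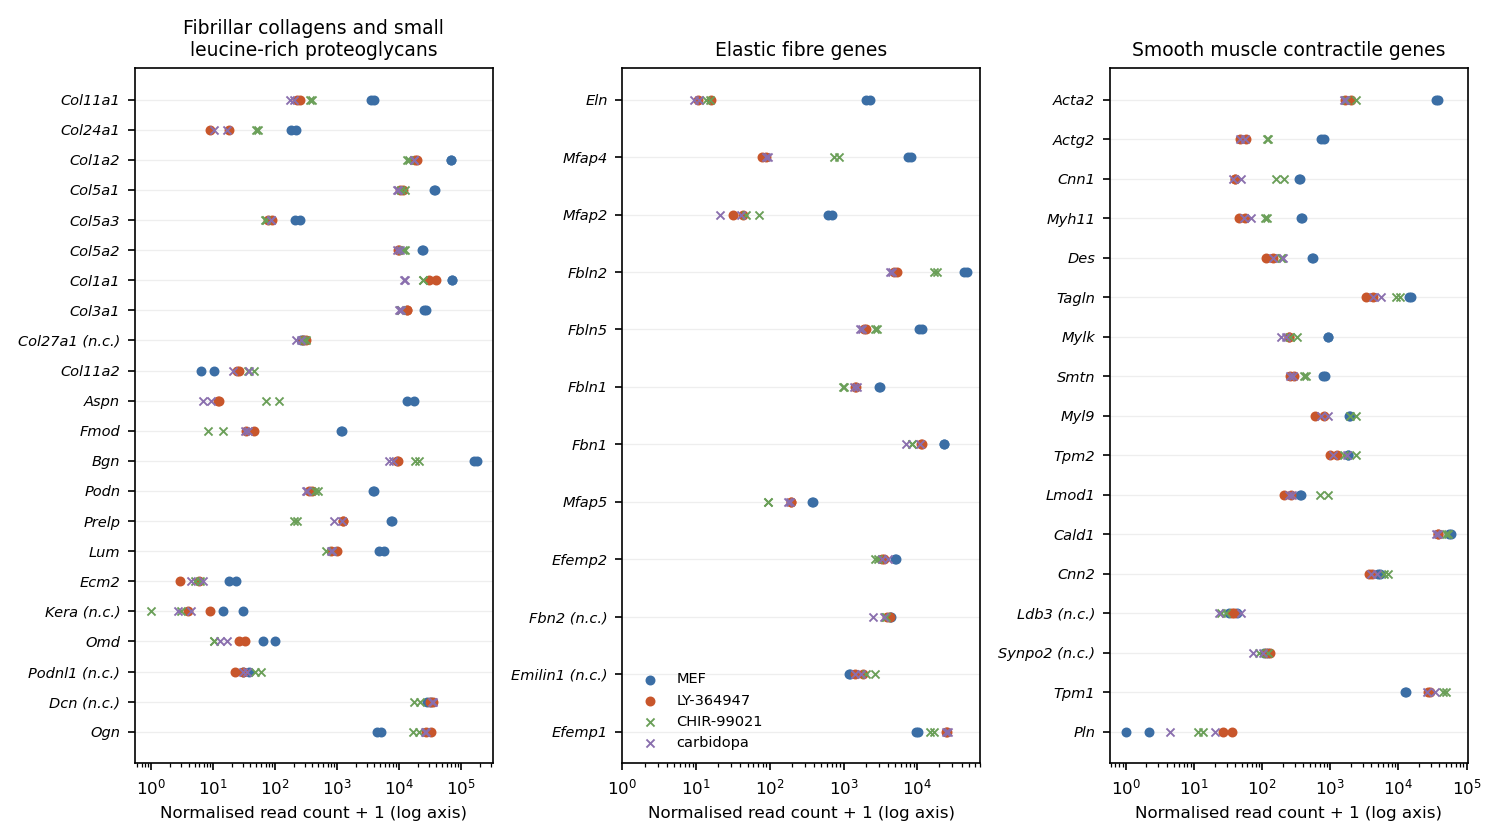
Normalised read count plus 1 (log axis) of fibrillar collagen and small leucine-rich proteoglycan genes (left), elastic fibre genes (middle) and smooth muscle contractile genes (right) in the 2 libraries each of MEF (blue), LY-364947 (orange), CHIR-99021 (green crosses) and carbidopa (purple crosses), with n.c. for genes not called between LY-364947 and MEF. Most genes have the MEF points at the right, Dcn has all points together, and for Mfap4, Fbln2, Tagln and Cnn1 the CHIR-99021 points lie between LY-364947 and MEF.

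Matricellular and provisional matrix genes were lower in 19 of 22 and higher in 0, a count that stayed at 18 or 19 when a library was left out. Fn1, which encodes fibronectin, fell from 343957 and 333526 to 64169 and 70039 (5.05-fold, log2 SE 0.22, edgeR adjusted p = 2.08e-05). Thbs1 (thrombospondin-1) fell from 240128 and 236365 to 39979.9 and 45706, Postn (periostin) from 89321 and 91419.5 to 23854 and 22109.5, and the CCN family gene Wisp1 from 16449.8 and 16718 to 843 and 889. The summed CPM of the list went from 52010.0 and 51290.0 in MEFs to 13830.0 and 14760.0. Of all tested genes 17.2% were lower than in MEFs and 13.7% higher. Against CHIR-99021, 9 of the 22 were lower with LY-364947 and 2 higher, beside 6.45% and 7.69% of all genes. Enzymes that process collagen were mixed, with 8 of 18 lower and 6 higher (5 lower without LY-364947 replicate 1). Lox, the lysyl oxidase that crosslinks collagen and elastin, fell from 101286 and 104381 to 19379 and 17948, and the prolyl hydroxylase subunit gene P4ha3 from 1675 and 1754 to 134 and 131. Loxl4 rose 5.59-fold, Loxl2 1.82-fold, and Tgm2, transglutaminase 2, 4.65-fold. Of the 18 genes of this group, 6 were lower than with CHIR-99021 and 1 higher.

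Matrix proteases and their inhibitors were lower in 16 of 22 and higher in 2, beside 17.2% lower and 13.7% higher of all genes. Against CHIR-99021, 7 of the 22 were higher with LY-364947 and 4 lower, beside 7.69% and 6.45% of all genes. The inhibitor genes Timp1 (9.04-fold), Timp2 (9.68-fold) and Timp3 (7.13-fold) all fell, as did the collagenase gene Mmp13, from 673 and 683 to 16.03 and 21.9. Mmp9, gelatinase B, went the other way, from 17.3 and 12.7 to 287 and 286, and was 41.1 and 24.9 with CHIR-99021. Among the integrins, the matrix receptors, 12 of 18 subunits were lower, with Itgb1 1.97-fold, Itgav 1.88-fold and Itgb5 2.49-fold, while the laminin receptor subunit Itga3 rose from 166 and 166 to 1136 and 1292. Of the 18 subunits, 2 were higher than with CHIR-99021 and 2 lower, near the shares of all genes.

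Genes of fibroblast identity did not move as a block: 13 of 21 were lower and 5 higher, beside 17.2% and 13.7% of all genes. Cd34 (6.15-fold), Pdpn (3.23-fold), Ly6a (4.36-fold), Thy1 (2.06-fold) and Vim (3.18-fold) fell. Dpp4, a surface protease of fibroblast progenitors, rose from 58.4 and 66.8 to 520.1 and 553, Osr1 2.03-fold and Twist2 2.10-fold, and Pdgfra went from 4246 and 4707 to 5902 and 5627 (log2 fold change 0.36, SE 0.11), a call lost when any of the 4 libraries was left out. Twist1 was not called. Compared with CHIR-99021, 10 of the 21 were higher and 1 lower, beside 7.69% and 6.45% of all genes. Among transition factors and cadherins, Cdh3 fell from 1138 and 1282 to 73.1 and 95.1, Cdh11 2.82-fold and Zeb2 1.92-fold, and Snai1 and Zeb1 were not called. Cdh1 (E-cadherin) had 0 reads in MEFs and 2 and 2 with LY-364947, and Epcam 0 and 0 against 3 and 2, all at or under the limit of 3 reads. Of the simple keratins Krt19 rose from 57.1 and 41.5 to 150.3 and 184. Of 10 tested genes of epidermal keratins and the cornified envelope, 2 were higher and 1 lower, with a median log2 fold change of 0.117. This stands beside 13.7% and 17.2% of all genes. Sprr1a rose from 58.4 and 65.7 to 1318 and 1293 and Ivl (involucrin) from 30.5 and 25.3 to 297 and 354. Sprr3 lay lower, with log2 fold changes from -1.718 to -1.363 over the fits. Krt5, Krt14 and Trp63, which define keratinocytes, had at most 1 read in any of the 4 libraries.

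Macrophage genes were lower in 16 of 17, a count that held when any of the 4 libraries was left out. Csf1r, the receptor that macrophages need, had 668 and 593 normalised counts in MEFs and 176 and 204 with LY-364947, Adgre1 (F4/80) fell from 619 and 644 to 84.2 and 107, and the lysozyme gene Lyz2 from 13176 and 13538 to 2517 and 2568. Cd14 was not called, and Cx3cr1 was at 1 and 0 reads in the treated libraries while the other members kept reads in both. The summed CPM of the list was 1366 and 1411 in MEFs and 315 and 326 with the compound. Of all tested genes 17.2% were lower than in MEFs and 13.7% higher. Fewer cells of a type and less RNA per cell cannot be told apart in bulk samples. Cx3cr1 and Fcrls, among the largest falls above, belong with these genes, and their part in other changes was not tested. Against CHIR-99021, 13 of the 17 were higher with LY-364947, beside 7.69% of all genes. Mrc1, the mannose receptor, had 326 and 323 normalised counts against 10.3 and 13.5 (edgeR adjusted p = 2.52e-06). Csf1, the ligand of Csf1r, fell from 9099 and 8478 to 4571 and 4972. Of 17 chemokine and cytokine genes 10 were lower and 1 higher, with Cxcl12 falling from 10093 and 10252 to 1073 and 1095, Cxcl14 from 912 and 947 to 41.1 and 54.2, and the alarmin gene Il33 higher by 2.96-fold. Ccl6, a chemokine outside that list, had 55.8 and 42.6 normalised counts in MEFs against 784 and 626 after treatment, and 74.0 and 65.3 under CHIR-99021.

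Of 11 Wnt target genes 3 were higher and 2 lower, beside 13.7% and 17.2% of all genes. The median log2 fold change was 0.06, and it ran from -0.05 to 0.10 over the fits. Lgr5, among the largest falls above, is a member of this list and its lowest (log2 fold change -9.106). Axin2, the feedback gene used as a readout, had 46.5 and 31.1 in MEFs against 49.1 and 69.4, not called, and Tcf7 rose from 9.29 and 9.22 to 66.1 and 50.4. The secreted antagonists changed in both directions, with Dkk2 falling from 2929 and 3277 to 114 and 91.3, and Sfrp1 rising from 2252 and 2599 to 8014 and 7876 and Frzb 4.77-fold. In the insulin-like growth factor system Igf1 fell from 3045 and 3542 to 354 and 301, Igfbp2 from 248 and 217 to 2.00 and 1.90, and Igfbp3 rose 1.89-fold. Of 21 growth factor and receptor genes of the FGF, PDGF, EGF and HGF families 12 were lower and 4 higher, and 2 or 3 higher when any of the 4 libraries was left out, the fewest without MEF replicate 1. Fgf10 (9.18-fold), Fgf7 (5.51-fold), Fgf2 (3.58-fold), Pdgfc (4.55-fold) and Vegfd (5.36-fold) fell, and the receptor gene Egfr rose from 1494 and 1565 to 7542 and 7412. In the Hedgehog pathway Cdon, a coreceptor, rose from 2236 and 2040.0 to 20447 and 18882 and Gli2 fell 2.31-fold, while Ptch1, a target gene, was not called (log2 fold change 0.51). In the Notch pathway Jag1 (2.20-fold) and Hes1 (2.03-fold) fell and Notch2 rose 1.93-fold.

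Of 18 S phase genes 7 were higher and 1 lower, with the replication helicase gene Mcm3 at 377 and 366 in MEFs and 624 and 667 with LY-364947, and 4 or 5 were higher when any of the 4 libraries was left out. Of 16 mitosis genes 0 were higher and 2 lower, beside 13.7% and 17.2% of all genes. The 2 lower genes were Ccnb1 and Plk1. Both lost their calls without MEF replicate 2 or either LY-364947 library, and Plk1 also without MEF replicate 1. Mki67, a marker of cycling cells, had 1292 and 1290.1 in MEFs against 1089 and 887 and was not called (log2 fold change -0.39, SE 0.16). Of all tested genes 7.69% were higher with LY-364947 than with CHIR-99021. Against CHIR-99021, 14 of the 16 were higher with LY-364947, for example Mki67 (265 and 277 with CHIR-99021), and 11 or 12 without a library of either treatment. Among 12 immediate early genes, which respond to growth signals, 7 were lower, with Egr1 falling from 1278 and 1348 to 444 and 426, and Jun was higher by 1.62-fold, a call lost without either MEF library or LY-364947 replicate 2. Of 12 NRF2 antioxidant genes 8 were higher and 2 lower, beside 13.7% and 17.2% of all genes.

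Housekeeping groups were read beside these lists. Of 82 cytosolic ribosomal protein genes 0 were higher and 1 lower (median log2 fold change -0.0028). Of 73 oxidative phosphorylation subunits 7 were higher and 0 lower (median 0.16, and 0.099 to 0.233 over the fits). Over all tested genes 13.7% were higher and 17.2% lower. The number of subunits called higher depended strongly on the fit.

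**Figure D4:**
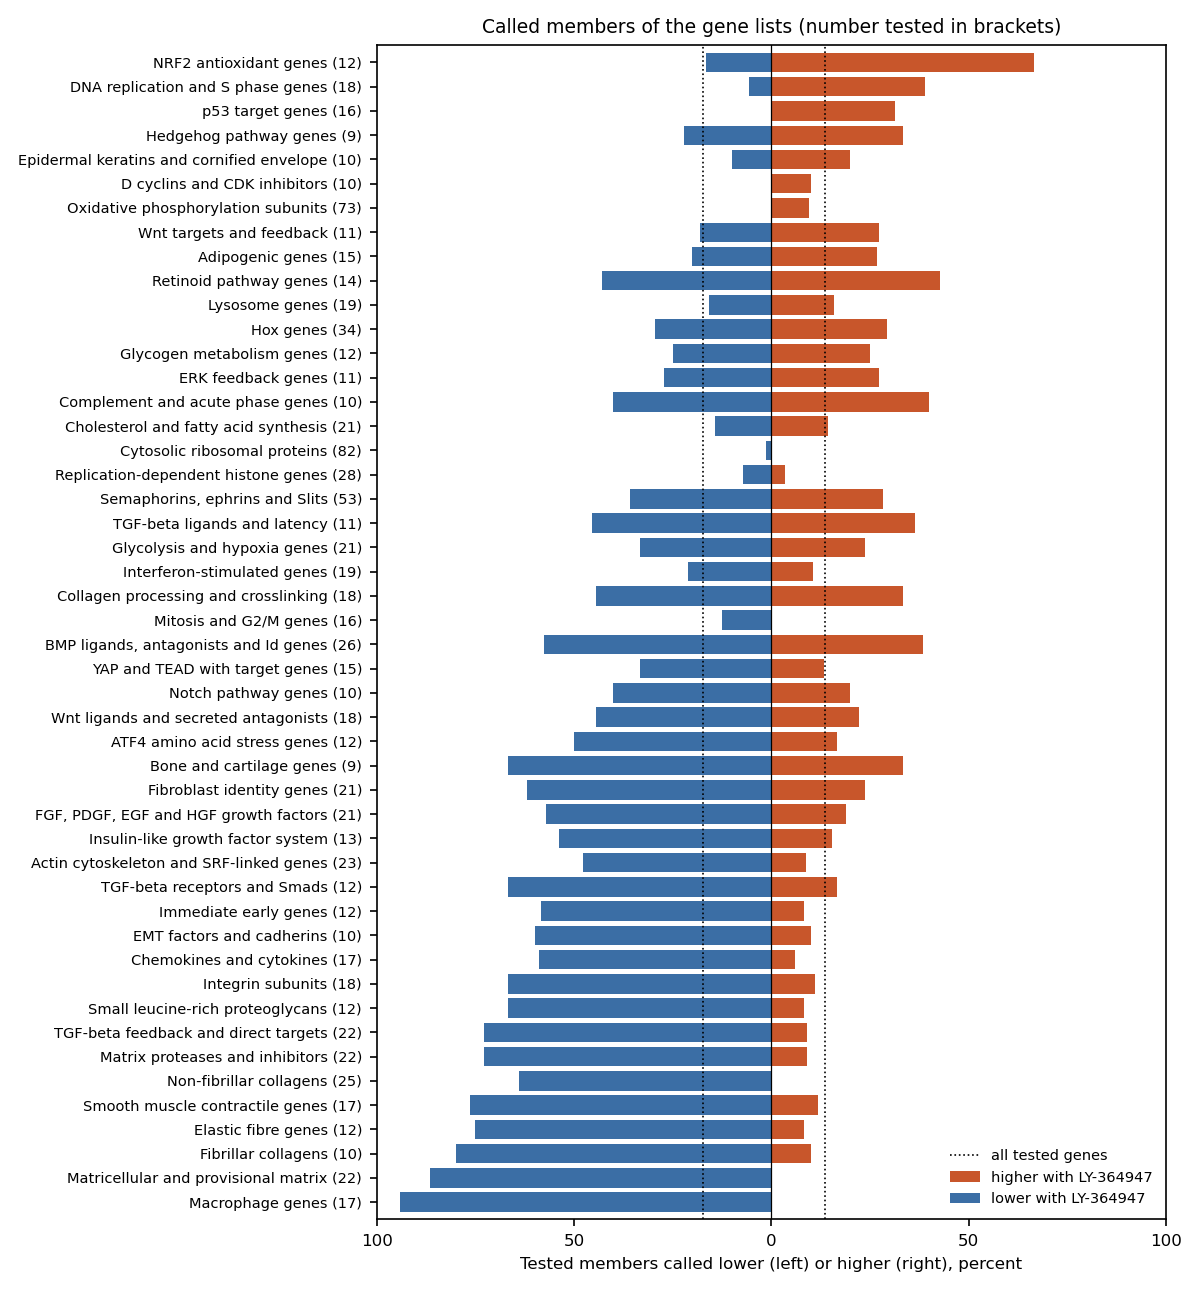
Percent of the tested members of each gene list called higher (orange, to the right) or lower (blue, to the left) with LY-364947 against MEF, for lists with at least 9 tested members, whose number is in brackets. Dotted lines give the 13.7% and 17.2% of all tested genes, and matrix, contractile and macrophage lists at the bottom reach far beyond the left line while ribosomal proteins stay within both.

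The Hox genes, which record the body position from which fibroblasts come, split by their place in the clusters. Of 13 tested genes of paralogue groups 1 to 5, which are expressed towards the head, 9 were higher and 0 lower (median log2 fold change 0.94). Of 12 genes of groups 6 to 9, 1 was higher and 4 lower (-0.13), and of 9 genes of groups 10 to 13, which are expressed towards the tail and the ends of limbs, 0 were higher and 6 lower (-0.90). Over all tested genes 13.7% were higher and 17.2% lower. Hoxa5 had 69.0 and 65.7 normalised counts in MEFs and 237 and 273 with LY-364947, and Hoxa3 rose from 46.5 and 54.1 to 176 and 157. Hoxd13 fell from 66.4 and 82.9 to 16.03 and 16.2, and Hoxd11 from 54.4 and 54.1 to 9.02 and 9.51. The groups were apart for these 4 genes, which were picked as examples (72.7% of all tested genes had the groups apart). Over all 34 tested Hox genes 10 were higher and 10 lower, with a median of -0.03, and when any of the 4 libraries was left out 7 to 9 were higher and 6 or 7 lower. The bands were drawn after the values had been seen.

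Genes of the sex chromosomes were read beside the Hox genes, since MEF cultures pool tissue of embryos. Xist, which is transcribed from the inactive X chromosome of female cells, had 21926 and 21159 normalised counts in MEFs and 7177 and 8403 with LY-364947 (2.77-fold lower, log2 SE 0.12, edgeR adjusted p = 6.61e-06). Of the genes of the Y chromosome, Eif2s3y (581 and 679.6 against 630.3 and 612), Kdm5d (409 and 416 against 546 and 507) and Uty (402 and 397 against 434 and 333) were not called, and Ddx3y fell by 0.38 on the log2 scale and lost its call when any of the 4 libraries was left out. Both MEF libraries thus held RNA of female and of male cells, as did both treated libraries. The part of a changed mixture of embryos, body sites or cell types in the other results was not tested.

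**Figure D5:**
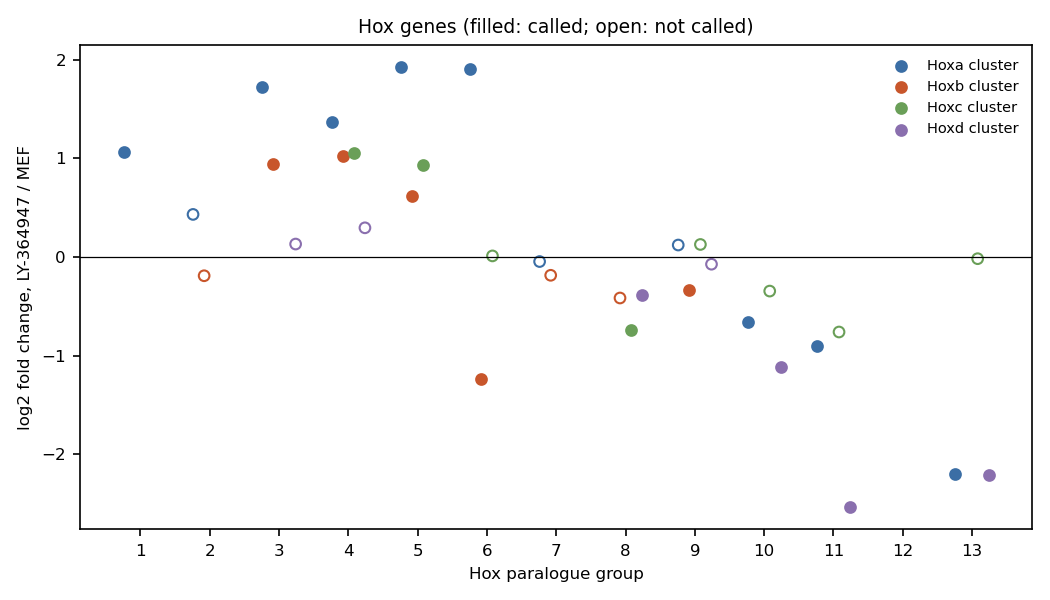
log2 fold change of LY-364947 over MEF (vertical) for the 34 tested Hox genes by paralogue group (horizontal), coloured by cluster, with filled points for called genes. Groups 3 to 5 hold points above 0 only, and the called genes of groups 10 to 13 all lie below 0.

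Set against the other treatments, LY-364947 differed from CHIR-99021 in 2143 genes, 1165 higher (7.69%) and 978 lower (6.45%). Leaving out a library of either treatment left 665 to 1214. Among the 5 largest shortfalls by the rule used above were Mfap4, Fabp4, Ctgf and Wisp1, and the 5 largest excesses were those of Mrc1, Ccl6, Mmp9, Bmp3 and Igfbp5. Igfbp5, which encodes a matrix-bound IGF carrier, had 574 and 618 normalised counts under CHIR-99021, 4599 and 4235 under LY-364947 and 7829.9 and 8344 in MEFs. Gdf10 had 624 and 764 normalised counts under CHIR-99021 against 3912 and 3655 under LY-364947 (log2 fold change 2.45, SE 0.12, edgeR adjusted p = 3.12e-06), and Clu had 8874 and 8759 against 22249 and 24192. From carbidopa, only 2 genes (0.0132%) differed in the fit of all 8 libraries, Col1a1 and Actn4, and both had the lower counts with carbidopa. This count depends on the carbidopa libraries, whose counts differed from each other with a chi-square per degree of freedom of 38.2, against 4.57 for MEF, 7.89 for LY-364947 and 10.02 for CHIR-99021, and all 8 libraries share 1 estimate of the spread: without carbidopa replicate 2 it was 3832, and without replicate 1 it was 4. The carbidopa values of the main genes lay near those of LY-364947, with 7594 and 6993 normalised counts of Rarb, 6753 and 8011 of Bgn, 5.88 and 8.33 of Aspn and 2783 and 1427 of Id3. The comparisons with MEF share the same 2 MEF libraries, so what is common to the treatments cannot be told apart from what is particular to those libraries.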

How the data were processed

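RNA was sequenced from 8 libraries of MEFs, 2 per group. The authors mapped reads to mm10 with STAR 2.4.2a and deposited raw counts per gene made with featureCounts, without pooling replicates, while the gene annotation and strand setting are not given in the sources used here. The methods name a NEBNext Ultra library kit and the labels a SMARTER kit. Reads of overlapping, antisense or near-identical genes may be split between them.

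The deposited counts of 50578 genes were filtered with filterByExpr, which left 15154, normalised by TMM and fitted with the quasi-likelihood test of edgeR 4.0.16 in R 4.3.3 on all 8 libraries, with group as the only term. The standard error of a log2 fold change was taken from the F statistic. Gene types came from a GRCm38 annotation and promoters from RefSeq, GRCm38.p6. The fit was also run on simulated counts with far fewer changed genes than were called here, and no result above rests on that run.

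The members and gene lists were chosen with earlier results of these data known. Named by rule were the 15 largest rises and falls of protein-coding genes with a mean of at least 100 normalised counts in the higher group and groups apart, up to 4 genes of smallest p per list, all genes of the TGF-beta and sex-linked lists, and the 5 largest differences each way from CHIR-99021. Some genes of these lists and of the rule are counted but not reported here. Other genes named as examples of a list were chosen after their values were seen. A fold against a group at 0 reads was set against 3 reads per library, which covers counting error only. DESeq2 1.42.0, RLE scaling, other filters, a replicate block, fits restricted to the groups compared and fits without each library were the alternatives, of which the fits without carbidopa or CHIR-99021 libraries, the fits of LY-364947 with either of these alone and a block with crossed numbers were added after seeing the data.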

Additional observations from a re-analysis of the deposited data

How the results depend on the processing

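The counts of 2081 genes higher and 2613 lower against MEF stayed within 1.5 times under DESeq2, RLE scaling, both filters and a replicate block (1957 and 2467), and among genes shared with the full fit none changed direction. Same-numbered MEF and LY-364947 libraries did not deviate together (correlation -0.0459), so the numbers were not taken as pairs, and the block gave 1973 genes for CHIR-99021 and 2 for carbidopa. A block with crossed numbers for LY-364947, tried because same-numbered libraries correlated at -0.125 with CHIR-99021 and -0.113 with carbidopa, gave 3029 and 2. In fits of the compared groups alone, 3275 genes were higher than in MEF, 3571 differed from CHIR-99021 and 0 from carbidopa. For carbidopa, DESeq2 gave 16 and no filter on low counts 329. With each of the 8 libraries left out in turn, counts ran from 1176 to 3011 genes higher and 1709 to 3457 lower than MEF, from 665 to 4255 for CHIR-99021 and from 2 to 3832 for carbidopa, the highest values all without a carbidopa library, whose replicates differed most (chi-square per degree of freedom 38.2). Of 248 named genes called against MEF, 214 were called under every alternative that gave them a value, 34 lost the call when a MEF or LY-364947 library was left out, and 0 were reversed, while 39, Csn3 and Aspn among them, had no value where at least 10 counts were required in every library. Medians of lists moved beyond the spread of replicates for 10 to 19 of 57 lists without a MEF or LY-364947 library, and for 14 with at least 10 counts required in every library. With 2 libraries per group, small changes were near the limit of what the test can call.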

Other observations

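Genes that guide axons and vessels, which fibroblasts also express, gave 15 higher and 19 lower of 53 tested (10 to 12 higher and 17 or 18 lower when any of the 4 libraries was left out), beside 13.7% and 17.2% of all genes. Among the Robo receptors and their Slit ligands, Robo2 fell from 1041 and 1223 to 18.0 and 13.3 normalised counts (71.9-fold), Slit3 from 19249.6 and 19608 to 3435 and 3724 and Slit2 from 13654 and 14053 to 6669 and 6196, while Robo1 rose from 652 and 754 to 2944 and 2839. The groups were apart for these 4 genes, as for 72.7% of all tested genes. Sema3e, a secreted semaphorin, rose from 1033 and 1140.4 to 12276 and 12389 and the transmembrane ephrin gene Efnb2 from 1789.5 and 1913 to 9219.9 and 8879. The semaphorin coreceptors went apart, with Nrp1 higher (1.95-fold) and Nrp2 lower (3.68-fold).

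In the bone, cartilage and tendon list 6 of 9 tested genes were lower and 3 higher, and 5 and 1 or 2 when any of the 4 libraries was left out. Mgp, which encodes a matrix protein that inhibits calcification, fell from 8824 and 8230.3 to 488 and 528, and the tendon genes Scx (38.5 and 38.0 to 3.01 and 0.95) and Tnmd (53.1 and 49.5 to 4.01 and 2.85) had few reads after treatment. Alpl, alkaline phosphatase of bone, went from 1.33 and 2.30 to 30.1 and 22.8. Of the complement genes, C4b fell from 81.0 and 94.5 to 5.01 and 4.75 and C3 from 200.5 and 192 to 49.1 and 50.4. Ptx3, an acute phase pentraxin, fell 10.3-fold. Among interferon-stimulated genes 2 of 19 were higher and 4 lower, near the 13.7% and 17.2% of all genes, and 2 lower without either MEF library and 1 without LY-364947 replicate 2. Members of the Ifit family went in both directions: Ifit2 rose from 996 and 1046 to 3448 and 3151 and Ifit3 from 1187 and 1183 to 2166 and 2214, while Ifit1 had 212 and 235 in MEFs and 134 and 98.9 with LY-364947, a call lost without MEF replicate 2 or LY-364947 replicate 2.

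Of the adipogenic genes, Ppargc1a, a coactivator of mitochondrial genes, rose from 13.3 and 25.3 to 163 and 133 and Zfp423, a preadipocyte factor, from 81.0 and 59.9 to 219 and 218, and the lipoprotein lipase gene Lpl fell from 6335 and 6863 to 1261 and 1261. In glycolysis and hypoxia genes 5 of 21 were higher and 7 lower, beside 13.7% and 17.2% of all genes, and 3 or 4 higher and 4 to 6 lower when any of the 4 libraries was left out, the fewest higher without MEF replicate 2 or LY-364947 replicate 2 and the fewest lower without MEF replicate 1. Ldha, lactate dehydrogenase, fell 1.83-fold and Ndrg1, a hypoxia-responsive gene, from 923 and 935 to 95.2 and 121, while Pdk1, a kinase gene whose product inhibits pyruvate dehydrogenase, rose from 311 and 304 to 961 and 967. Of the NRF2 antioxidant genes counted above, Nqo1 rose from 396 and 325 to 914 and 765 and Gsta4 from 167 and 157 to 436 and 498, and the cystine transporter gene Slc7a11 fell from 119 and 173 to 39.1 and 39.9.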
